A study of Mus musculus with 2 samples.

Results

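Transcripts of red cell sugar metabolism, those of 9 glycolytic enzymes (Hk1, Gpi1, Tpi1, Gapdh, Pgk1, Pgam1, Eno1, Pkm and Ldha) and of bisphosphoglycerate mutase (Bpgm), were followed in single-cell RNA sequencing of mouse blood. The 10 genes were chosen by symbol and not by a rule on their values, though with earlier results of these data known. They came from 32285 genes counted, and each matched 1 row. They were read in all 1857 cell barcodes of 2 libraries and compared between the 847 barcodes in which globin transcripts made up at least 50% of the unique molecular identifiers (UMIs, each standing for 1 captured RNA molecule) and the 1010 others. Both libraries, replicate 1 and replicate 2, came from wild type mice that had a burn and a tendon cut (burn/tenotomy), and their blood was passed through a microfluidic sorter (iChip) to enrich what the submitters call cMPCs along with blood cells. There was no uninjured group and no unsorted blood, the labels give no strain, age or time after injury, and they do not say whether the replicates came from separate mice. The p-values below therefore draw only on spread between these libraries, which may be technical. With the library as a block, this is the variation between libraries of the difference between barcode groups, shared across genes.

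Glycolysis splits glucose to pyruvate and lactate and yields ATP without mitochondria. A maturing red cell expels its nucleus and then clears its mitochondria, after which glycolysis is its source of ATP. It also holds a side branch that other cells hardly use: Bpgm converts 1,3-bisphosphoglycerate, the product of the Gapdh step, to 2,3-bisphosphoglycerate, which binds haemoglobin and lowers its affinity for oxygen. A reticulocyte, the youngest red cell in blood, still carries RNA made before its nucleus was lost, so a transcript level here is what remains of that RNA and not a rate of transcription or an amount of enzyme.

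Total depth was 3967318 and 3329292 UMIs in replicates 1 and 2, and the libraries shared 0 barcodes. High-globin barcodes numbered 474 and 373, others 534 and 476. Levels are given as UMIs per 1000000 non-globin, non-mitochondrial UMIs (CPM) of the summed barcodes of a class, which came to 372471 and 284078 such UMIs in high-globin and 312326 and 244655 in other barcodes. Of the 15 erythroid markers, 11 were abundant enough to test and all 11 were higher in high-globin barcodes, where 8.35% of all 3391 genes tested were higher (summed level 58909 ± 623 CPM against 4006 ± 3583, SD, n = 2), while Klf1, an erythroid transcription factor, had 0 UMIs in every barcode. The 1010 other barcodes were no single cell type: 767 had more than 20% mitochondrial UMIs (439 of 534 and 328 of 476), the leukocyte markers summed to 21791 CPM in replicate 1 and 1394 in replicate 2, and their median depth was 51.5 and 80.5 non-globin, non-mitochondrial UMIs a barcode against 721 and 688 in high-globin barcodes (846 and 861.5 against 5979.5 and 6048 UMIs of all kinds). Gm42418, a locus that overlaps ribosomal RNA, took 48.0% and 44.3% of the non-globin, non-mitochondrial UMIs in high-globin barcodes and 16.3% and 34.4% in the others. These values moved with the classes, and their part in the differences below was not tested.

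Bpgm stood apart from the glycolytic enzymes in the high-globin barcodes of both libraries. It had 4773 UMIs in replicate 1 and 3719 in replicate 2, or 12814 and 13092 CPM (mean 12953 ± 196, SD, n = 2), against 32 and 190 UMIs in the others, or 102 and 777 CPM (440 ± 477). The classes did not overlap, and the others differed far more between replicates than the high-globin barcodes did. How many of all genes were also without overlap was not counted, here or for the genes below, so with 2 values per class a lack of overlap sets no gene apart. Of 3391 genes tested, 8.35% were called higher and 82% lower. The level was 125-fold higher in high-globin barcodes in replicate 1 (95% counting interval 88.5 to 183) and 16.9-fold in replicate 2 (14.6 to 19.6). All intervals here are exact and cover counting error only. In edgeR's quasi-likelihood test over all genes, with the library as a block, Bpgm was higher in high-globin barcodes by 5.47 on the log2 scale (SE 1.04, adjusted p = 4.05e-07). With edgeR's TMM scaling the difference was 7.45 (SE 4.0) and the call was lost (adjusted p = 0.0940). With the line drawn at 75% or 90% globin, which moves barcodes that hold Bpgm among the others, the edgeR difference was 3.31 and 2.21.

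At least 1 Bpgm UMI was found in 469 of 474 high-globin barcodes in replicate 1 (98.9%, exact binomial interval 97.6 to 99.7) and in 366 of 373 in replicate 2 (98.1%, 96.2 to 99.2). Among the others these shares were 2.25% (12 barcodes) and 14.9% (71). In the 121 other barcodes led by leukocyte markers, a type that should lack Bpgm, 2 held 3 Bpgm UMIs in all (1.65%), at a median of 1068 and 110 non-globin, non-mitochondrial UMIs a barcode in replicates 1 and 2. After each barcode was thinned to 100 non-globin, non-mitochondrial UMIs, which left out, as shallower than that, 1 and 3 high-globin and 336 and 253 other barcodes, the shares were 67.2% and 67.0% in high-globin barcodes and 0.732% and 8.86% in the others. A high-globin barcode held a median of 8 Bpgm UMIs in each replicate, and the central 80% of barcodes held 3 to 20 in replicate 1 and 2 to 20.8 in replicate 2. The highest barcodes held 54 and 62. The variance over barcodes was 5.89 and 7.51 times the mean, so counts per barcode were more spread than counting error alone gives, with depth not equalised.

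**Figure D1:**
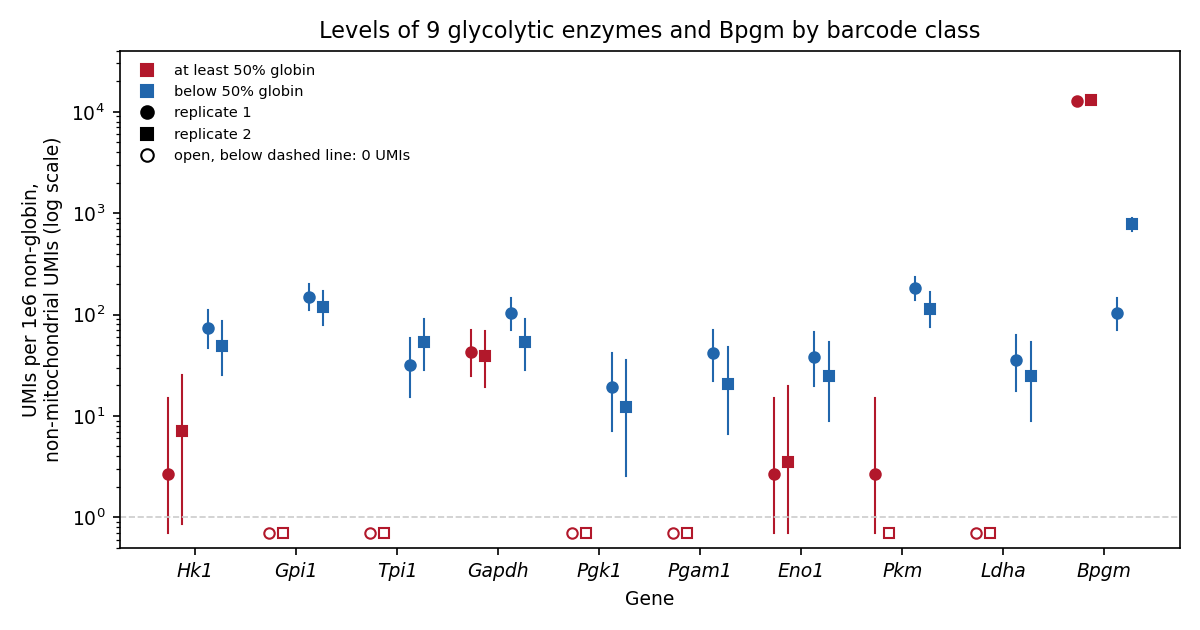
Level of each of the 10 transcripts in UMIs per 1000000 non-globin, non-mitochondrial UMIs (log axis) for each replicate, in barcodes with at least 50% globin UMIs and in the others, with exact Poisson 95% intervals as bars and open symbols below the dashed line for 0 UMIs. Bpgm lies at 12814 and 13092 in the high-globin barcodes, while 5 of the other 9 genes have 0 UMIs there.

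The 12 Bpgm barcodes of replicate 1 and 71 of replicate 2 outside the high-globin class lay mostly between 10 and 50% globin. Of the 222 Bpgm UMIs in other barcodes, 208 were in the 116 barcodes with 10 to 50% globin, 12 of them in replicate 1 and 104 in replicate 2. In replicate 2, 66 of those 104 barcodes held Bpgm, and 61 of the 66 also held Alas2, the first enzyme of haem synthesis in red cells. Below 10% globin 14 UMIs remained, 5 and 9 (17 and 52.9 CPM). Just under the line, at 45 to 50% globin, replicate 1 had 0 barcodes and replicate 2 had 7, with 25 Bpgm UMIs (4720 CPM). Just above it, at 50 to 55%, each replicate had 6 barcodes with 22 Bpgm UMIs (3090 and 3630 CPM). Replicate 2 was also the higher within the bin of 10 to 50% globin (1444 and 2425 CPM).

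Per non-globin, non-mitochondrial UMI, Bpgm was also higher at higher globin share within the high-globin class. Its level was 9573 and 8822 CPM at 50 to 90% globin, 18418 and 19666 at 90 to 95%, and 25018 and 20810 at 95% or more. The UMIs it is scaled by made up 17.2% and 17.7%, 7.24% and 6.81%, and 4.36% and 4.08% of all UMIs in these bins. The scale is thus tied to the binning variable, and its part in the rise and in the test below was not tested. The replicates differed by less than the step from the first of these bins to the second, and the last step was small in replicate 2. Between barcodes of at least 90% globin (173 and 162 barcodes, 18986 and 19839 CPM) and those of 50 to 90% (301 and 211), edgeR gave a log2 difference of 1.08 (SE 0.08, adjusted p = 5.04e-31). In this comparison 41.7% of the 496 genes tested were called higher and 6.25% lower, and the median gene was higher by 0.53. Bpgm lay 0.54 above that median, and between 0.55 and 0.56 above it with TMM scaling, relative log expression scaling, DESeq2 or the ribosomal-RNA-overlapping loci left out. The share of higher genes among all calls was 87.0% here, 52.0% with TMM scaling, 45.2% with relative log expression scaling, 38.5% with DESeq2 and 53.3% without those loci. Per barcode, the median was 8.49 and 8.18 Bpgm UMIs per 1000 non-globin, non-mitochondrial UMIs at 50 to 90% globin, and 19.0 and 18.6 at 90% or more.

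Set against globin itself, the order was the reverse. Bpgm had 20.1 and 19.2 UMIs per 10000 globin UMIs at 50 to 90% globin, 14.4 and 14.4 at 90 to 95%, and 11.4 and 8.86 at 95% or more. Barcodes are binned here by their globin UMIs, so this ratio has the binning variable as its denominator and is given as a description. At 10 to 50% globin it was 25.2 and 55.5, and below 10%, on 5 and 9 Bpgm UMIs, it was 17.5 and 31.4.

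**Figure D2:**
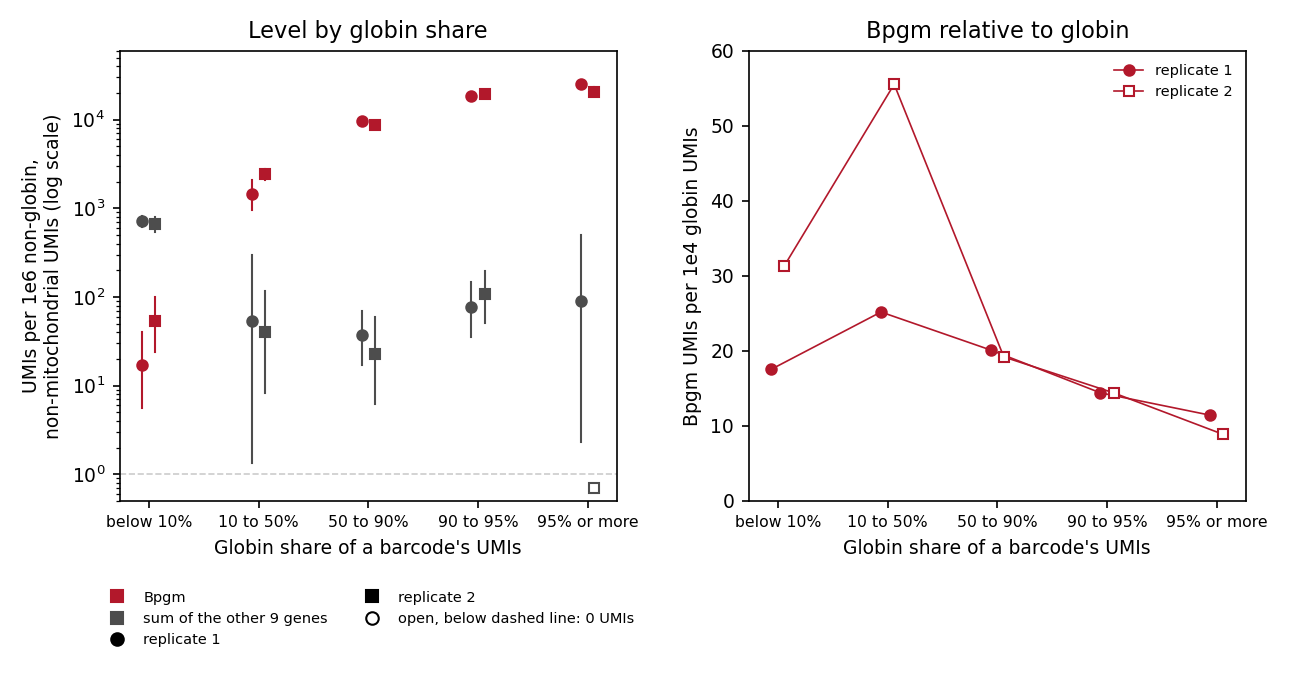
Left, level of Bpgm and of the other 9 genes summed (log axis, exact Poisson 95% intervals) by globin share of the barcode, for each replicate. Right, Bpgm UMIs per 10000 globin UMIs in the same bins: the level of Bpgm is higher in each higher bin, while its ratio to globin is 20.1 and 19.2 at 50 to 90% and 11.4 and 8.86 at 95% or more.

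**Figure D3:**
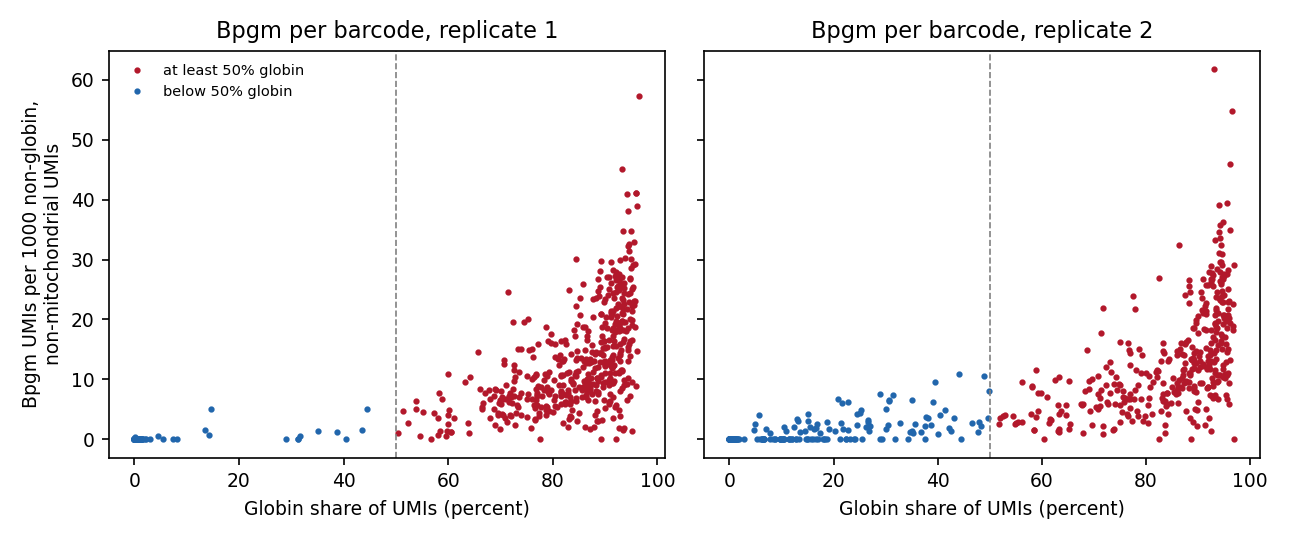
Bpgm UMIs per 1000 non-globin, non-mitochondrial UMIs in each barcode with at least 100 such UMIs against its globin share, for replicate 1 and replicate 2. The medians are 8.49 and 8.18 at 50 to 90% globin and 19.0 and 18.6 at 90% or more, with wide scatter between barcodes at any globin share.

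Bpgm lies at chr6:34476207-34505613 on the plus strand (ENSMUSG00000038871, mm10 with GENCODE M21, protein-coding, as are the other 9 genes). The windows from 250 bases before to 50 after the transcription start are shown for 3 genes, from RefSeq on GRCm38.p6, because they carry the contrast of levels: Bpgm, abundant in high-globin barcodes, Gapdh, which kept a trace there, and Pgk1, which had 0 UMIs there. Capitals mark the CCAAT box (CCAAT or its complement ATTGG) and the core of the hypoxia response element (ACGTG or GCGTG, complements CACGT and CACGC). The Bpgm window is chr6:34476106-34476405 on the plus strand, the Gapdh window chr6:125165724-125166023 on the minus strand and the Pgk1 window chrX:106186850-106187149 on the plus strand, each written 5′ to 3′ in the direction of transcription.
Bpgm: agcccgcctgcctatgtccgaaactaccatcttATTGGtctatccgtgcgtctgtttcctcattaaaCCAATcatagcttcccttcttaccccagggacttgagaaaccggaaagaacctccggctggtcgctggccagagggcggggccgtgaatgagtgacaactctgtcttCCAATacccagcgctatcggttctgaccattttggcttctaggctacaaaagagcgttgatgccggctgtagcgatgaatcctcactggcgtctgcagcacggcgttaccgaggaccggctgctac
Gapdh: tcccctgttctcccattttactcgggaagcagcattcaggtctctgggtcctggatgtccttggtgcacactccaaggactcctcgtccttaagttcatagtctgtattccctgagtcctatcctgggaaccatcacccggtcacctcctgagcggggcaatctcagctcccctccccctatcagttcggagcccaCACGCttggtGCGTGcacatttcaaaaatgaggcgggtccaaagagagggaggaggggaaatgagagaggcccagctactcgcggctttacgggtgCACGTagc
Pgk1: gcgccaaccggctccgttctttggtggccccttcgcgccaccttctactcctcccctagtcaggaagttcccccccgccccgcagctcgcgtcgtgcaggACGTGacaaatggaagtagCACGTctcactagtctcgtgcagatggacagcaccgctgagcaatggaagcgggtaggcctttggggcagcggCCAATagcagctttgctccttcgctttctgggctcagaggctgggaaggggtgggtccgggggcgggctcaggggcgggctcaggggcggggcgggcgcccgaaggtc
The Bpgm window held 3 CCAAT boxes, starting 217, 183 and 76 bases before the start site, and 0 hypoxia cores. Gapdh had hypoxia cores at -54, -44 and +43 and 0 CCAAT boxes, and Pgk1 had hypoxia cores at -150 and -131 and a CCAAT box at -58. All 10 genes matched a window, with 15 start sites in all. A hypoxia core was present for 7 of the 10 genes (Eno1, Gapdh, Hk1, Ldha, Pgam1, Pgk1 and Pkm), in 10 of the 15 windows. A CCAAT box was present for 4 (Bpgm, Eno1, Pgk1 and Pkm), in 6 of the 15 windows. Of all 32851 promoter windows of this length, 43.8% and 37.4% hold them. Some genes have several windows, so only the counts of windows compare with these shares. The GATA core (AGATAA or AGATAG, or else TGATAA or TGATAG, and their complements) holds the letters bound by the erythroid factor Gata1. It occurred in 2 of the 15 windows (Gapdh and Pkm) and in 29.8% of all windows. The CACCC box (CACCC or GGGTG), bound by Klf1, occurred for 7 of the 10 genes, in 8 of the 15 windows, and not in that of Bpgm. It occurred in 57.5% of all windows. TATAAA (complement TTTATA) occurred for 0 of the 10 and in 13.6% of all windows. These are letter matches only, and say nothing of binding or of sites outside the windows.

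The other 9 enzymes had little RNA in high-globin barcodes, and 27 of their 33 UMIs there were from Gapdh. Together they had 19 and 14 UMIs in high-globin barcodes (51.0 and 49.3 CPM) and 211 and 115 in the others (676 and 470 CPM), a level 11.6-fold higher in the others over both libraries (counting interval 8.13 to 17.2). The replicates of a class lay closer to each other than to the other class. Counted among all UMIs of the 10 genes, Bpgm took 99.6% in high-globin barcodes in each replicate (exact binomial intervals 99.4 to 99.8 in both), a share free of the total by which levels are scaled. It took 13.2% (9.18 to 18.1) and 62.3% (56.6 to 67.8) in the others, and 2.33% and 7.44% in those under 10% globin. Shares of UMIs between genes are not per length and do not compare numbers of transcripts per gene.

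At the head of the pathway, Hk1, hexokinase 1, which traps glucose as glucose 6-phosphate (ENSMUSG00000037012, chr10:62268855-62379908, minus strand), had 1 and 2 UMIs in high-globin barcodes (2.68 and 7.04 CPM) and 23 and 12 in the others (73.6 and 49.0). Pooled over libraries it was 13.8-fold higher in the others (4.34 to 69.9). Gpi1, glucose-6-phosphate isomerase (ENSMUSG00000036427, chr7:34201330-34230336, minus strand), had 0 UMIs in high-globin barcodes of both libraries and 47 and 29 in the others (150 and 119 CPM), at least 29.9-fold lower in high-globin barcodes when a count of 0 is read as 3 over the class. Tpi1, triosephosphate isomerase, which interconverts the pair of 3-carbon sugars made from glucose (ENSMUSG00000023456, chr6:124810586-124814296, minus strand), had 0 UMIs against 10 and 13 (32.0 and 53.1 CPM), at least 9.04-fold lower. For both isomerases the classes did not overlap, in a comparison in which 82% of all 3391 genes tested were called lower.

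Gapdh, glyceraldehyde-3-phosphate dehydrogenase, makes the substrate that Bpgm and Pgk1 both draw on (ENSMUSG00000057666, chr6:125161715-125166467, minus strand). Its level in high-globin barcodes was 43.0 and 38.7 CPM (16 and 11 UMIs) against 102 and 53.1 in the others (32 and 13 UMIs), with the lowest of the others close to the high-globin values. The ratio of others to high-globin was 1.96 over both libraries (1.19 to 3.29), with a counting interval that held 1 within replicate 2 (1.37, 0.567 to 3.38). Its log2 difference in edgeR was -0.91 (SE 0.64, adjusted p = 0.161), not past the threshold, and its sign turned under other scalings (1.12 with TMM, 0.61 with relative log expression, 0.61 with DESeq2). The 27 UMIs lay in 24 high-globin barcodes, each with at most 2, and all 24 also held Bpgm. These 24 had a median of 1056.5 non-globin, non-mitochondrial UMIs against 705 over the class. By globin share, Gapdh stood at 109 and 70.6 CPM below 10%, at 0 and 13.4 at 10 to 50%, at 28.7 and 17.2 at 50 to 90%, at 76.8 and 85.6 at 90 to 95%, and at 0 UMIs in the 62 barcodes of 95% or more. Those 62 held 27659 non-globin, non-mitochondrial UMIs, which allows up to 108 CPM, so no drop from the bin before was detectable at this depth. From 50 to 90% to 90% or more, edgeR gave a log2 difference of 1.58 (SE 0.80, adjusted p = 0.0896), which passed the threshold without the library block (1.56, edgeR adjusted p = 0.0360) and with barcodes limited to at least 100 genes and at most 20% mitochondrial UMIs (2.05, edgeR adjusted p = 0.0426). It did not pass with TMM (1.11, edgeR adjusted p = 0.266), relative log expression (1.06, 0.284) or no filter (1.57, 0.138), and DESeq2 gave 1.14 with an unadjusted p = 0.426 and no adjusted p.

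Below Gapdh, Pgk1, phosphoglycerate kinase 1, whose step forms ATP and which the Bpgm branch bypasses (ENSMUSG00000062070, chrX:106187100-106203699, plus strand), had 0 UMIs in high-globin barcodes and 6 and 3 in the others (19.2 and 12.3 CPM), at least 3.54-fold lower. Pgam1, phosphoglycerate mutase 1, a relative of Bpgm in the same enzyme family (ENSMUSG00000011752, chr19:41911923-41918660, plus strand), had 0 UMIs against 13 and 5 (41.6 and 20.4 CPM), at least 7.07-fold lower. The mutase of the main pathway and that of the side branch thus lay on opposite sides of the globin line. Pgam1 had only 18 UMIs in all, too few for the main test. As 82% of the 3391 genes tested were lower in high-globin barcodes, its side of the line does not set it apart. Eno1, enolase 1 (ENSMUSG00000063524, chr4:150236721-150248879, plus strand), had 1 and 1 UMIs against 12 and 6 (38.4 and 24.5 CPM), 10.6-fold higher in the others (2.54 to 94.3).

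Pkm, the pyruvate kinase gene of muscle and most other tissues (ENSMUSG00000032294, chr9:59656368-59679375, plus strand), had 1 and 0 UMIs in high-globin barcodes and 57 and 28 in the others (183 and 114 CPM), 100-fold higher in the others (17.5 to 4003). Its red cell and liver counterpart Pklr had 0 UMIs in all 1857 barcodes, which allows up to 4.57 CPM in high-globin barcodes and 2.47 CPM over both classes. Ldha, lactate dehydrogenase A, which turns pyruvate to lactate (ENSMUSG00000063229, chr7:46841475-46855627, plus strand), had 0 UMIs against 11 and 6 (35.2 and 24.5 CPM), at least 6.68-fold lower. For the 5 enzymes at 0, the absence in 847 barcodes allows up to 4.57 CPM and a share of up to 0.354% of barcodes with a UMI, and does not show that a red cell lacks the transcript. Several of these genes, Gapdh first among them, have processed pseudogene copies in the mouse genome, and no source used here says how reads that match several copies were counted.

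In the edgeR test over all genes, 5 of the 10 transcripts passed the filter on low counts: 1 was higher in high-globin barcodes (Bpgm), 3 were lower (Hk1, adjusted p = 0.00114, Gpi1, 2.79e-09, and Pkm, 1.26e-08) and Gapdh was not called. Among all 3391 genes tested, 8.35% were higher and 82% lower, so a lower call was the common outcome and says little of these enzymes in particular. A gene low in high-globin barcodes passed the filter only through the others, which bears on the 3 lower calls. Without the filter all 10 were tested, with 1 higher and 7 lower in edgeR, beside 1.69% higher and 34.9% lower of 15832 genes; Pgk1 (adjusted p = 0.0877) and Gapdh (0.307) were not called. The fitted median over all 3391 genes was -5.91, a value that for genes with 0 UMIs depends on the prior count, and it was -3.96 with TMM, -4.47 with relative log expression and -4.57 with DESeq2. Relative to it, Bpgm lay 11.4 higher on the log2 scale, Gapdh 5.0 and Hk1 2.28, while Pkm lay at -0.42 and Gpi1, whose fitted value also depends on the prior count, at -2.47. Under those 3 scalings the values were 11.4 to 11.6, 5.08 to 5.19, 2.20 to 2.34, -0.53 to -0.44 and -3.69 to -1.83. With no filter in edgeR they were 9.62, 3.25, 0.53, -2.17 and -4.22. As 82% of the genes tested with the filter were lower, a gene with a few UMIs in high-globin barcodes, such as Hk1 with 3, can lie above their median. The Hk1 call was lost with TMM (adjusted p = 0.294) and with relative log expression scaling (adjusted p = 0.0828) in edgeR.

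**Figure D4:**
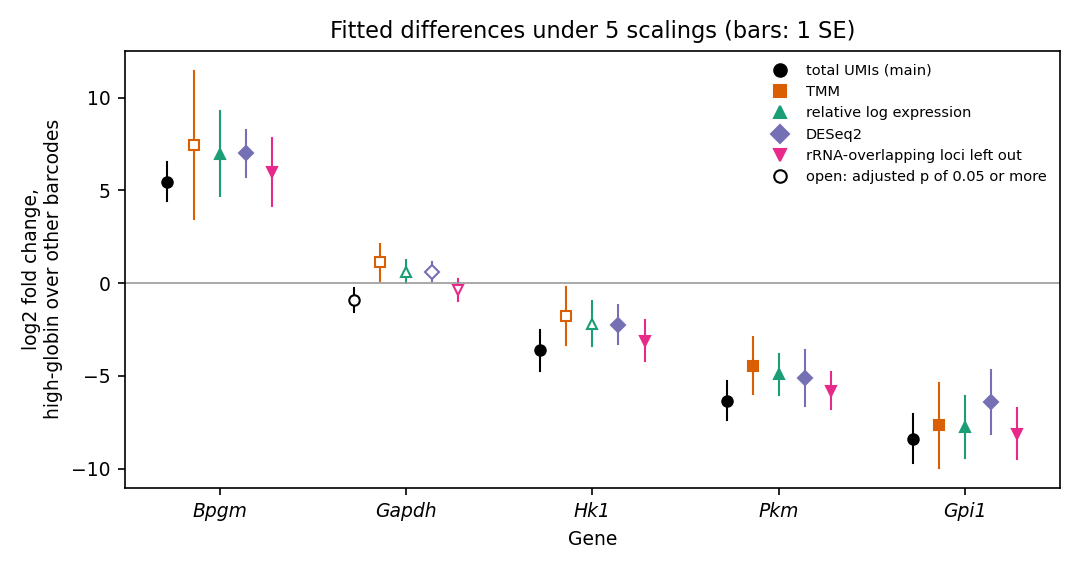
Fitted log2 difference, high-globin minus other barcodes, of the 5 tested transcripts under 5 scalings (bars, 1 SE, and open symbols, adjusted p of 0.05 or more). For edgeR the SE is worked back from the test statistic, and for DESeq2 it is the fitted one. Bpgm is positive under all 5 and not called with TMM, Gpi1 and Pkm are negative and called under all 5, Hk1 is negative, and Gapdh changes sign, from -0.91 to 1.12.

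Among the other barcodes, the enzymes other than Bpgm were concentrated in a few. At least 1 UMI of the 9 was present in 75 of 534 (14%) and 42 of 476 (8.82%) of them, and the 10 barcodes with the most held 54.5% and 65.2% of these UMIs. At least 3 of the 9 genes were seen together in 13 and 6 barcodes, with medians of 4267 and 9357.5 non-globin, non-mitochondrial UMIs. In high-globin barcodes 17 (3.59%) and 11 (2.95%) held any of the 9, all 28 with Bpgm, and 0 held 3 of them. Thinned to 100 non-globin, non-mitochondrial UMIs, the shares with any of the 9 were 5.25% and 3.70% in the others and 0.518% and 0.338% in high-globin barcodes.

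The other barcodes were also split by which marker list led them, with at least 3 marker UMIs, a rule set after the files were seen. The erythroid list was left out of this split, so a barcode with mainly erythroid markers could fall under no list. The 43 barcodes led by platelet markers had 2546 and 2308 CPM of the 9 enzymes, the 121 led by leukocyte markers 759 and 249, the 24 led by mesothelial or epithelial markers 658 and 731, and the 35 led by mesenchymal markers 348 and 625. Platelet-led barcodes were highest in each replicate, and 16 of 21 and 18 of 22 of them had over 20% mitochondrial UMIs, against 3 of 12 and 4 of 12 of the mesothelial or epithelial ones. The part of this in the difference was not tested. Pkm reached 1114 and 1039 CPM there (14 and 9 UMIs) and Hk1 398 and 923 (5 and 8 UMIs), while Gpi1 had 0 UMIs there and 361 and 83.6 CPM in the mesothelial or epithelial and 107 and 336 in the mesenchymal barcodes. The 785 barcodes led by none of these lists had 186 and 159 CPM of the 9 enzymes and held 211 of the 222 Bpgm UMIs. They are not barcodes without a cell type, as erythroid markers were not counted. At 10 to 50% globin, 8 of 8 and 61 of 66 barcodes with Bpgm also held the erythroid marker Alas2. The platelet-led values rest on 52 UMIs in all, and no test was made between these groups.

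Outside the 10, the lists of related genes showed which other steps had RNA in high-globin barcodes. Of 29 further glycolytic enzymes, isoforms and regulators, 7 had 0 UMIs anywhere, and 18 of the remaining 22 had 0 UMIs in high-globin barcodes, with 8 UMIs of the list there and 257 in the others. As 82% of all genes tested were lower, and a gene near 0 in high-globin barcodes passes the filter only through the others, a lower call in these lists was close to fixed and sets no gene apart. The 3 tested were lower in edgeR: Pfkp, a phosphofructokinase subunit (0 UMIs against 42 and 15, adjusted p = 4.08e-08), Pfkfb3, which makes its activator fructose 2,6-bisphosphate (0 against 25 and 11, 3.85e-05), and Pgm2l1, which makes glucose 1,6-bisphosphate (7.97 ± 3.67 against 70.8 ± 9.63 CPM, 0.00102). Of 8 glucose and lactate transport genes, 3 were tested, with Slc2a3, the glucose carrier Glut3 (1.76 ± 2.49 against 178 ± 83.7 CPM, edgeR adjusted p = 3.26e-09), and Slc16a1, the lactate carrier Mct1 (6.71 ± 9.49 against 59.6 ± 25.5, edgeR adjusted p = 0.00536), lower. Bsg, basigin, the partner that carries Mct1 to the membrane, was higher (290 ± 27.3 against 139 ± 34.1 CPM, edgeR log2 difference 1.08, adjusted p = 0.0459). Emb, the other such partner, was not tested, with 37 of its 39 UMIs in the other barcodes of replicate 1.

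The pentose phosphate and pyruvate lists had members that were higher along with Bpgm. Taldo1, transaldolase of the pentose phosphate pathway, had 467 and 574 CPM in high-globin barcodes and 128 and 77.7 in the others (520 ± 75.4 against 103 ± 35.6, edgeR log2 difference 2.34, SE 0.57, adjusted p = 6.61e-05). It was 1 of only 2 genes of the pentose phosphate list of 9 that could be tested, and 5 of the 9 had 0 UMIs in high-globin barcodes. Tkt, transketolase, the other gene of that list to be tested, had 41.6 ± 20.8 against 40.5 ± 51.4 CPM (edgeR log2 difference 0.09, adjusted p = 0.915). In the other barcodes 24 of its 25 UMIs came from replicate 1. Mpc2, a subunit of the mitochondrial pyruvate carrier, had 440 and 398 against 35.2 and 45 CPM (edgeR log2 difference 3.39, SE 0.60, adjusted p = 6.23e-08), and was the only 1 of 11 genes for pyruvate entry to mitochondria that could be tested. Its partner subunit Mpc1, named here after its values were seen, had 1 and 0 UMIs in high-globin barcodes and 21 and 3 in the others, too few to test. For Taldo1 and Mpc2 the high-globin values lay above the others in both libraries. Both were also higher at 90% globin or more than at 50 to 90% (edgeR log2 differences 0.72 and 1.11, adjusted p = 0.000403 and 1.44e-07), where the median gene was higher by 0.53 and 41.7% of genes were called higher. Taldo1 lay near that median and was not called there with TMM scaling (0.26, edgeR adjusted p = 0.304), nor was either gene with DESeq2 (adjusted p = 0.742 and 0.383). Of 8 hypoxia regulators 2 were tested, and both subunits of the hypoxia-inducible factor, Hif1a (1.34 ± 1.90 against 93.9 ± 5.97 CPM, edgeR adjusted p = 6.00e-07) and Arnt (1.34 ± 1.90 against 94.3 ± 11.1, edgeR adjusted p = 5.87e-07), were lower, each with 1 UMI in high-globin barcodes. They passed the filter only through the others, and 82% of all 3391 genes tested were lower. A lower call was thus close to fixed and does not set them apart. With TMM scaling in edgeR, Taldo1, Bsg, Hif1a, Pfkfb3, Pgm2l1 and Slc16a1 kept their sign and lost the call (adjusted p = 0.0505, 0.0978, 0.0508, 0.0652, 0.363 and 0.535), and Tkt was called higher (2.40, adjusted p = 0.0473).

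The genes whose level followed Bpgm most closely over 5 bins of globin share in 2 libraries (10 points, Pearson r of log2(CPM + 10), 2310 genes with at least 50 UMIs) were Mkrn1 and Ube2l6, enzymes of the ubiquitin system, with r = 0.998 each, and Arf5, a small GTPase, Bnip3l, a mitophagy receptor of reticulocytes, and Alas2, with r = 0.997 each. For Gapdh they were Sec23a (r = 0.964), Selenof (0.949), Txn1 (0.943), Eif3j1 (0.941) and Rap1a (0.939), 4 of them with 51 to 58 UMIs in all. The points of a bin share barcodes and depth, and bins of 1 library share that library, so these values describe the order of genes and carry no test.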

How the data were processed

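Raw UMI counts per gene and barcode were deposited by the submitters as 10x matrices, with Cell Ranger 7.1.0 and mm10 per the file headers and the submitters' processing notes, which also name Seurat 5. Every barcode was kept, the lowest with 500 and 501 UMIs, and doublets were not called or removed here. Globin (10 genes) and mitochondrial (13 genes) UMIs were left out of counts and totals. Counts were summed per library and globin class (4 sums, depths in the report) and tested with edgeR 4.0.16 (quasi-likelihood, library as block, totals as library sizes, filterByExpr, Benjamini-Hochberg over all genes, threshold 0.05), tested on simulated data. The simulated data had as many genes raised as lowered, so they did not cover a comparison in which most genes are lower. Each fit has 1 residual degree of freedom, so the spread is shared across genes. The SE given for edgeR is the size of the log2 difference divided by the square root of the test's F statistic, and that for DESeq2 is its own. The block rests on both classes coming from the same library. Alternatives were TMM and relative log expression scaling, DESeq2 1.42.0, no filter, no block, barcode filters, globin lines of 25, 75 and 90%, and each library left out; limiting the others to below 10% globin was added after seeing the data. Thinning was repeated 20 times. The 10 genes, the lists and the marker genes were chosen with earlier results of these data known. All 10 genes are named; of the pathway lists, the 12 genes with the most UMIs; and the 5 genes with the pattern most like Bpgm and most like Gapdh. Aldoa, a symbol on 2 gene IDs, was not used.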

Additional observations from a re-analysis of the deposited data

How the results depend on the processing

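Over all alternatives Bpgm stayed higher in high-globin barcodes, with log2 differences from 2.21 (line of 90%) and 3.31 (line of 75%) to 8.67 (others limited to below 10% globin), and the call was lost with TMM scaling (7.45). Gpi1 and Pkm kept sign and call in every test run. Gapdh, not called, changed sign at a line of 90% globin (0.40), with DESeq2 (0.61), relative log expression (0.61) and TMM (1.12). Genes called higher numbered 283, with 457 under relative log expression and 489 under DESeq2; genes called lower numbered 2782, with 1422 under TMM, 5528 with no filter and 1540 at a line of 90%. Between at least 90% and 50 to 90% globin, 207 genes were higher, with 104 under TMM, 90 under relative log expression, 20 under DESeq2 (which gave no adjusted p for 288 of 496) and 104 without the ribosomal-RNA-overlapping loci; 31 were lower, with 96, 109 and 91 under TMM, relative log expression and without those loci, and 20 with no filter. The cause was not tested. Without the replicate block 264 genes were higher and 2770 lower, and 194 and 21 in the second comparison; it changed the call of Gapdh there (1.56) and of no other of the 5 and 2 of the 10 genes tested in these comparisons. Leaving out a replicate leaves no residual degrees of freedom, so these are values only: Bpgm 4.07 to 6.96 for high-globin against others and 0.99 to 1.17 for 90% or more against 50 to 90%. The Bpgm share of the 10 genes' UMIs (mean over replicates) was 99.6142% in high-globin barcodes, 99.5956% and 99.5676% at lines of 25 and 90%; in the others it was 37.7%, and 76.1% and 92.5% at lines of 75 and 90%. Depth limits the other 9 enzymes, with 33 UMIs in 847 high-globin barcodes.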
